A study of Mus musculus with 14 samples.

Results

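The mouse respiratory chain was followed here through 108 protein-coding genes, 95 nuclear-encoded and 13 mitochondrially encoded, in liver RNA. The members were taken by symbol: names starting with Nduf, Uqcr or Atp5, the cytochrome c oxidase subunits Cox4 to Cox8, the succinate dehydrogenase subunits, Cyc1, Cycs and the mt- coding genes. They are 108 of the 35588 genes to which transcripts of the deposited tables could be assigned. The study gave mice on a high-fat diet a silk scaffold that carried differentiated pre-adipocytes grown out of the stromal cells of brown fat, and sequenced messenger RNA of the recipients' livers. The 6 transplant libraries carry titles that start with iBAT 2x, and the 8 comparison libraries carry titles that start with Sham-WT and had the scaffold without cells. The series text gives the diet for recipients as a whole, and the labels give no diet, age, sex or time after transplantation per library, nor what 2x stands for. WT is not spelled out, and no genotype is given for the iBAT 2x libraries. The labels do not say that the libraries came from separate animals, so each p-value measures the spread between these libraries only.

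The respiratory chain passes electrons from NADH (complex I) and succinate (complex II) through coenzyme Q to complex III, through cytochrome c to complex IV, and finally to oxygen. Complexes I, III and IV pump protons across the inner mitochondrial membrane, and complex V, the ATP synthase, uses the gradient to make ATP. Most subunits are encoded in the nucleus and imported. The mitochondrial genome encodes core subunits of complexes I, III, IV and V and none of complex II. Hepatocytes are rich in mitochondria and use the chain to power glucose and urea synthesis and to reoxidise the carriers reduced by fatty acid oxidation.

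Library totals ran from 19482580 to 28910968 estimated counts. The numbers in the sample titles fall into ranges below 100 (3 transplant and 4 empty-scaffold libraries) and 100 or above (3 and 4). What these numbers mean is not given in the sources used here. Mean fragment length, read from the deposited tables as transcript length minus effective length, was 221.6 to 236.2 bases in the libraries numbered below 100. It was 199.7 to 202.9 bases in those numbered 100 or above, except for transplant replicate 1 at 223.6 bases. Transplant replicate 1 therefore stood apart from its number range, and results that rest on it are given with and without it below. All 10 hepatocyte markers were tested, at a summed 95416 to 145077 CPM (counts scaled to a common library size) in transplant and 81638 to 144650 CPM in empty-scaffold libraries. Of 12 brown adipocyte markers only 5 passed the filter on low counts, and the brown fat transcription factor Lhx8 was at 0 in every library. In bulk liver, fewer cells of a type and less RNA per cell cannot be told apart.

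Per unit of length, the mitochondrially encoded transcripts were by far the most abundant members. The deposited TPM, a scale that corrects for transcript length and is summed here per gene, is used for levels between genes. The 13 mitochondrial genes together held 147588 ± 27645 TPM (SD, n = 6) in transplant and 154982 ± 30357 TPM (SD, n = 8) in empty-scaffold livers. The 95 nuclear genes together held 26709 ± 3007 and 26692 ± 1828 TPM. The ATP synthase subunit a gene mt-Atp6 was highest at 25329 ± 6493 and 26440 ± 7424 TPM, ahead of the catalytic core subunits of cytochrome c oxidase mt-Co3 (20343 and 20688 TPM), mt-Co2 (19248 and 20132 TPM) and mt-Co1 (17843 and 19019 TPM). These neighbours in the order do not differ beyond their SDs. The gene for the complex I subunit mt-Nd6, the one mitochondrial protein-coding gene read from the light strand, was lowest at 91.5 ± 48.8 and 139 ± 87.9 TPM. The coding sequences of mt-Atp8 and mt-Atp6, and of mt-Nd4l and mt-Nd4, overlap on the same strand, and how their reads were divided was decided by the quantification.

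The highest nuclear members were the cytochrome c oxidase subunit Cox4i1 (1218 ± 170 TPM in transplant, 1173 ± 153 in empty-scaffold livers), the complex IV component Ndufa4 (1111 ± 218 and 1044 ± 173) and the ubiquinone-binding complex III subunit Uqcrq (1095 ± 170 and 1007 ± 173). Their levels lie within an SD of each other. Assembly factors of complex I help build the complex and are no part of the finished enzyme. The highest of them, Ndufaf2, was at 42.1 ± 6.15 and 39.4 ± 5.34 TPM, near the lowest nuclear subunits of that complex, Ndufb4 (40 and 32.2 TPM) and Ndufs1 (39.0 and 54.3 TPM). Complex IV has subunits with tissue-specific isoforms, some of which are high in muscle or brown fat. The isoforms Cox6a2 (0.0658 and 0.0769 TPM) and Cox8b (0.544 and 0.545 TPM) were near 0 in both groups, beside Cox6a1 at 768 and 815 TPM and Cox8a at 471 and 485 TPM. The isoform Cox7a1, known from muscle and brown fat, was at 11.9 ± 2.59 and 13.8 ± 5.47 TPM against 286 ± 48.2 and 271 ± 29.5 TPM for Cox7a2. The lung isoform Cox4i2 was at 0.138 and 0.168 TPM. The testis isoforms Cox7b2 and Cox8c were listed at 0 in every library. Cox4i2, Cox6a2, Cox7b2, Cox8b, Cox8c and the testis isoform Cox6b2 are the 6 members that failed the filter on low counts.

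**Figure D1:**
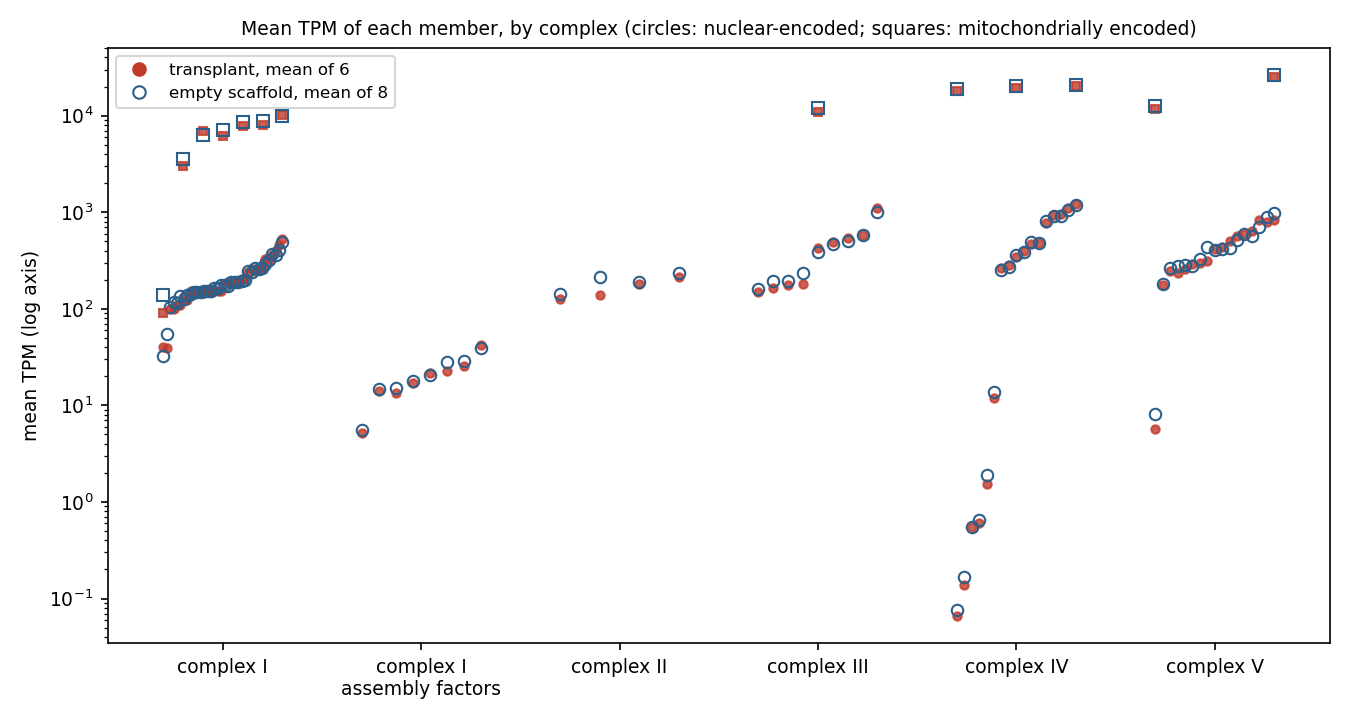
Mean deposited TPM (log axis) of each member with a value above 0, by complex, with filled red symbols for the 6 transplant libraries and open blue symbols for the 8 empty-scaffold libraries; circles are nuclear-encoded and squares mitochondrially encoded genes. The mitochondrial genes lie above the nuclear members of the same complex except mt-Nd6 (91.5 and 139 TPM), and the lowest complex IV circles are Cox6a2 (0.0658 and 0.0769 TPM) and Cox4i2.

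Summed as CPM, the nuclear members were higher in transplant livers, with groups that overlapped, whereas the same members summed as TPM were level between groups. The nuclear sum ran from 14682 to 20937 CPM (median 17144) in transplant and from 10534 to 17490 CPM (median 13481) in empty-scaffold livers. The 4 empty-scaffold libraries numbered 100 or above were the lowest of all, at 10534 to 12333 CPM, and the other 4 ran from 14628 to 17490 CPM. The transplant libraries ran from 16541 to 18407 CPM below 100 and from 14682 to 20937 CPM at 100 or above, where transplant replicate 1 was the highest of all 14. Without it, the other transplant libraries numbered 100 or above, at 14682 and 14730 CPM, also lay below all of that group numbered below 100. As TPM, the nuclear sum ran from 21751 to 31103 in transplant and from 24822 to 30461 in empty-scaffold livers. The mitochondrial sum ran from 54832 to 98168 CPM (median 82841) in transplant and from 47897 to 99281 CPM (median 53097) in empty-scaffold livers, and its highest library was an empty-scaffold one. No test is given for these sums, since the members were chosen with results of these data known.

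**Figure D2:**
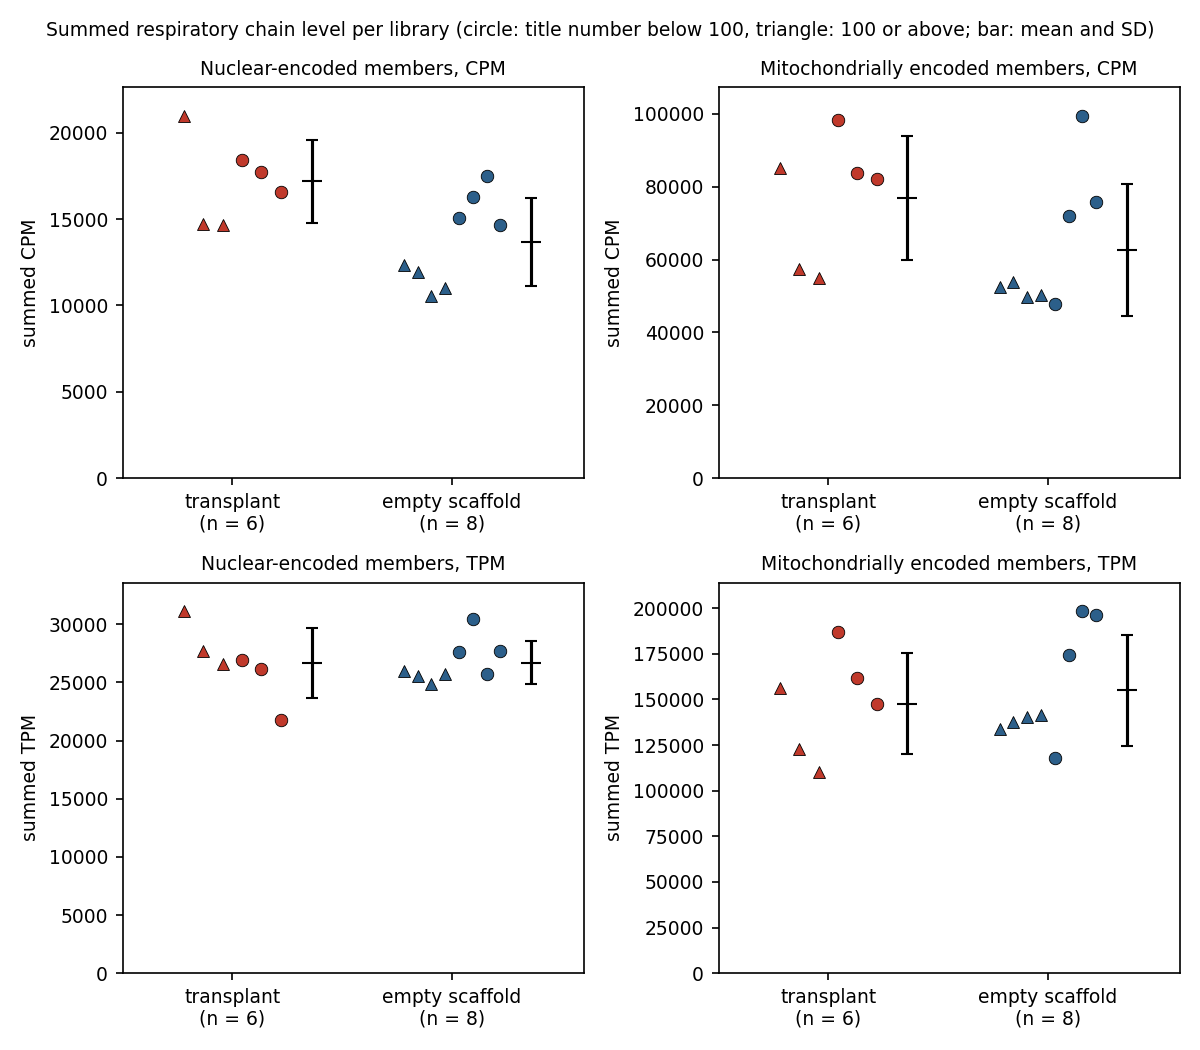
Summed level of the nuclear-encoded (left) and mitochondrially encoded (right) members in each library, as CPM (top) and as deposited TPM (bottom); red is transplant, blue empty scaffold, circles have title numbers below 100, triangles 100 or above, and bars show mean and SD. In CPM the 4 blue triangles of the nuclear panel lie at 10534 to 12333, below every other library, while in TPM the nuclear means are 26709 and 26692.

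Gene by gene, 8 of the 102 tested members rose in transplant livers and none fell. The test was edgeR's quasi-likelihood test on estimated counts with Benjamini-Hochberg adjustment over all 13131 tested genes, called at an adjusted p under 0.05. Over all tested genes it called 3.31% higher and 4.23% lower. Fold changes are given as log2 of transplant over empty scaffold with their SE. The median log2 fold change was 0.40 for the 89 tested nuclear members and 0.28 for the 13 mitochondrial ones, against -0.02 for all tested genes. On the scale log2(TPM + 1) the same medians were -0.03 and -0.09, where the median of all tested genes was -0.30. The nuclear members thus lay above the median gene on both scales and above 0 on the count scale only. In all, 98 of 102 members had a log2 fold change above 0, beside 47.1% of all tested genes. At an unadjusted p under 0.05, 64 nuclear members were higher and none was lower, beside 14.6% of all tested genes higher. No member had groups that did not overlap, beside 0.571% of tested genes that did so with transplant higher. The 8 calls were Ndufb2, Ndufb6 and Ndufb9 of complex I, its assembly factor Ndufaf4, Uqcrh of complex III, Cox7a2 of complex IV, and Atp5e and Atp5k of complex V. None was called without transplant replicate 1, when 138 genes were called in all (0.385% higher), nor without transplant replicate 5 or empty-scaffold replicate 3 or 4 (edgeR; 33, 48, 49 and 48 members were higher at an unadjusted p under 0.05 in these 4 fits). Without the last 3 of these libraries in turn, 0.595%, 0.796% and 0.714% of genes were called higher. DESeq2 called 35 members higher, beside 7.55% of genes, and limma-voom 7, beside 3.04%. With fragment length as a covariate 75 were called higher, beside 12.8% of genes, and with effective lengths as offset 2, beside 2.07%.

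Of the lists of other liver cell types, those of Kupffer, stellate and sinusoidal endothelial cells held markers that fell, beside 4.23% of all tested genes called lower. Of 12 Kupffer cell markers 5 fell and none rose, and their sum was 159 to 241 CPM in transplant against 203 to 480 CPM in empty-scaffold livers. Of 10 stellate cell markers 4 fell and none rose (153 to 288 against 188 to 435 CPM), and of 10 sinusoidal endothelial markers 2 fell and none rose (106 to 163 against 139 to 226 CPM). With smooth trends on transcript length and GC content removed from each library, edgeR called 6 Kupffer cell markers lower and no stellate or sinusoidal endothelial marker (at an unadjusted p under 0.05 without that step, 8 stellate and 5 endothelial markers were lower). Of the hepatocyte markers 1 of 10 rose, the serpin Serpina1c (0.68 ± 0.18, adjusted p = 0.0353, edgeR), whose adjusted p was 0.0963 with the trends removed. No marker on these 3 lists of non-hepatocytes was at 0 in every library. Of the brown adipocyte markers none was called by edgeR, with 1 higher and 1 lower at an unadjusted p under 0.05. DESeq2 called 1 higher, the fatty acid elongase Elovl3 (0.88, adjusted p = 0.0196, against 0.0598 in edgeR), which was named after its values were seen. The summed level of the list was 55.3 to 159 CPM in transplant and 50.1 to 159 CPM in empty-scaffold livers. EdgeR called none of the 6 cholangiocyte, 6 T and natural killer cell, 5 B and plasma cell and 6 erythroid markers that passed the filter. Of 12 skeletal and cardiac muscle markers 1 passed and was called higher (1.21), but not with the trends removed (0.84). The summed level of that list was 0.653 to 1.37 CPM in transplant and 0.341 to 1.22 CPM in empty-scaffold livers. The part of these cell types in the respiratory chain values was not tested.

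Complex I is the entry point for electrons from NADH, with a peripheral arm that holds flavin and iron-sulphur clusters and a membrane arm that pumps protons. Of its 43 members all were tested, 3 rose and 42 had log2 fold changes above 0, with a median of 0.39 (-0.02 on log2(TPM + 1)). The 3 calls were all accessory subunits of the membrane arm. Ndufb2 ran from 46.9 to 89.2 CPM (median 61) in transplant and from 36.4 to 59.0 CPM (median 41.7) in empty-scaffold livers, a log2 fold change of 0.53 ± 0.14 (adjusted p = 0.0336). Ndufb9 ran from 259.8 to 441.5 CPM (median 289.9) against 157.5 to 260.5 CPM (median 196), a change of 0.55 ± 0.14 (adjusted p = 0.0353). Ndufb6 ran from 73.0 to 131 CPM (median 83.2) against 48.0 to 81.7 CPM (median 62.6), a change of 0.51 ± 0.15 (adjusted p = 0.0483). In each of the 3 the groups overlapped, and the highest library was transplant replicate 1.

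The core subunits of the peripheral arm were not among the calls. Ndufs1, the largest subunit and a carrier of iron-sulphur clusters, had the lowest value of the complex at -0.08 ± 0.11 (adjusted p = 0.625), with 77.5 to 105 CPM in transplant and 70.4 to 113 CPM in empty-scaffold livers. Ndufv1, which binds NADH and flavin, was at 0.16 ± 0.09 (adjusted p = 0.233). Ndufv2, a further iron-sulphur subunit, was at 0.46 ± 0.17 (adjusted p = 0.087), and Ndufab1, the mitochondrial acyl carrier protein, at 0.34 ± 0.14 (adjusted p = 0.124). The highest value of the complex was that of the membrane arm subunit Ndufb4 at 0.67 ± 0.21, whose adjusted p of 0.0588 missed the threshold. It ran from 26.8 to 54.1 CPM (median 31.5) in transplant and from 13.4 to 30.2 CPM (median 22) in empty-scaffold livers. On the count scale the other nuclear subunits ran from 0.12 for Ndufa10 to 0.59 for Ndufa7. On log2(TPM + 1) Ndufv1 and Ndufab1 were at -0.27 and -0.04, below 0. A gene that GENCODE M21 lists as the pseudogene Ndufb1-ps and RefSeq as protein-coding Ndufb1 has a symbol that starts with Nduf. It was not a member because only genes typed as protein-coding in GENCODE M21 were taken. It was called higher (0.61 ± 0.13, adjusted p = 0.0185).

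Of the 8 complex I assembly factors named Ndufaf, 1 rose, and all 8 had log2 fold changes above 0 (median 0.33, and -0.08 on log2(TPM + 1)). Ndufaf4, which acts early in the assembly of the complex, ran from 22.7 to 32.3 CPM (median 28.7) in transplant and from 18.9 to 26.7 CPM (median 21.3) in empty-scaffold livers. Its change was 0.38 ± 0.10 (adjusted p = 0.039) on counts and -0.03 on log2(TPM + 1). At 2454 bases its transcript is the longest among the 8 called members. Ndufaf2 had the highest value of the group at 0.49 ± 0.16 (adjusted p = 0.07) and Ndufaf1 the lowest at 0.15 ± 0.12 (adjusted p = 0.431), and the other 5 ran from 0.24 for Ndufaf7 to 0.43 for Ndufaf6.

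Complex II, the succinate dehydrogenase of the tricarboxylic acid cycle, had no call among its 4 members in edgeR, with 2 higher at an unadjusted p under 0.05 and 1 called by DESeq2. Sdha, the flavoprotein that oxidises succinate, had the lowest value of all members, -0.13 ± 0.10 (adjusted p = 0.399). It ran from 377 to 569.5 CPM (median 471) in transplant and from 456 to 559 CPM (median 503) in empty-scaffold livers, and its lowest library was transplant replicate 1. The iron-sulphur subunit Sdhb was at 0.31 ± 0.15 (adjusted p = 0.164). The membrane anchors Sdhc and Sdhd were at 0.22 ± 0.13 (adjusted p = 0.247) and 0.40 ± 0.13 (adjusted p = 0.0606). On log2(TPM + 1) Sdha was called lower at -0.60 (limma, adjusted p = 0.0391), and Sdhb, Sdhc and Sdhd were at -0.12, -0.19 and -0.08. That test called 0.228% of genes higher and 16.7% lower.

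Complex III moves electrons from coenzyme Q to cytochrome c. Of its 10 members 1 rose and all 10 had log2 fold changes above 0 (median 0.39, and -0.06 on log2(TPM + 1)). Uqcrh, the hinge protein that sits by cytochrome c1, ran from 159 to 282 CPM (median 192) in transplant and from 98.5 to 184 CPM (median 122) in empty-scaffold livers. Its change was 0.58 ± 0.16 (adjusted p = 0.0383), the highest of the complex. The core proteins Uqcrc1 and Uqcrc2 were at 0.12 ± 0.10 (adjusted p = 0.449), the lowest of the complex, and 0.21 ± 0.10 (adjusted p = 0.157). The electron carriers were at 0.32 ± 0.11 (adjusted p = 0.0841) for the Rieske iron-sulphur protein Uqcrfs1 and 0.31 ± 0.10 (adjusted p = 0.0694) for cytochrome c1, Cyc1. The small subunits Uqcrb, Uqcr10, Uqcr11 and Uqcrq ran from 0.45 to 0.54 with adjusted p-values of 0.0714 to 0.13. On log2(TPM + 1) the 4 core and carrier genes were at -0.38, -0.23, -0.13 and -0.13. Cytochrome c itself, Cycs, was at 0.34 ± 0.23 (adjusted p = 0.329), and its value is uncertain. The quantified transcript set also held Gm10053, 99.9% identical to Cycs over the whole of its shorter transcript. It took a mean of 1987.9 counts per library against 1487.3 for Cycs.

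Complex IV, cytochrome c oxidase, reduces oxygen to water. Of its 22 members 16 were tested, 1 rose and all 16 had log2 fold changes above 0 (median 0.39, and -0.03 on log2(TPM + 1)). Cox7a2, the liver isoform of subunit VIIa, ran from 125 to 203 CPM (median 143) in transplant and from 85.2 to 136 CPM (median 98.8) in empty-scaffold livers. Its change was 0.51 ± 0.13 (adjusted p = 0.0314). Cox4i1, the regulatory subunit that binds ATP, ran from 596 to 1126 CPM (median 805) against 401 to 816 CPM (median 549), a change of 0.49 ± 0.19 (adjusted p = 0.106). The 4 empty-scaffold libraries numbered 100 or above held 401 to 452 CPM of Cox4i1 and the 4 below 100 held 645 to 816 CPM. Cox5a and Cox5b, which lie at the matrix side, were at 0.37 ± 0.12 (adjusted p = 0.0615) and 0.41 ± 0.20 (adjusted p = 0.177), and Cox6a1 and Cox8a at 0.32 ± 0.18 (adjusted p = 0.243) and 0.35 ± 0.15 (adjusted p = 0.128). The muscle isoform Cox7a1 was at 0.19 ± 0.27 (adjusted p = 0.651), from 1.70 to 3.41 CPM in transplant and from 1.09 to 4.01 CPM in empty-scaffold livers. On log2(TPM + 1) Cox5a, Cox6a1, Cox8a and Cox7a1 were at -0.06, -0.08, -0.05 and -0.13. The highest value of the complex was 0.54 ± 0.18 (adjusted p = 0.0661), that of Ndufa4, and the lowest 0.06 ± 0.25 (adjusted p = 0.895), that of its paralog Ndufa4l2. Cox7a2l, a factor that joins complexes III and IV into supercomplexes, was at 0.27 ± 0.10 (adjusted p = 0.0892).

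Complex V couples proton flow through a membrane ring to ATP synthesis in the F1 head. Of its 19 members 2 rose, both small subunits, and 17 had log2 fold changes above 0 (median 0.33, and -0.06 on log2(TPM + 1)). Atp5k, subunit e, which helps ATP synthase form dimers, had the smallest adjusted p of all members. It ran from 94.7 to 167 CPM (median 111) in transplant and from 67.1 to 100.1 CPM (median 80.2) in empty-scaffold livers, a change of 0.54 ± 0.13 (adjusted p = 0.0246). Only transplant replicate 6, at the group's lowest value, lay among the empty-scaffold libraries. Atp5e, the epsilon subunit of the central stalk, had the highest value of the complex, 0.65 ± 0.18 (adjusted p = 0.0402). It ran from 174.9 to 346 CPM (median 209.7) against 105 to 209 CPM (median 129.5). The large F1 subunits were not called on the count scale. The alpha subunit Atp5a1 was at -0.01 ± 0.09 (adjusted p = 0.94), from 806 to 1093 CPM in transplant and from 852 to 1026 CPM in empty-scaffold livers. The beta subunit Atp5b, where ATP forms, was at 0.07 ± 0.10 (adjusted p = 0.663), and the gamma subunit Atp5c1, the rotating shaft, at 0.33 ± 0.11 (adjusted p = 0.0639). On log2(TPM + 1) Atp5a1 was called lower at -0.49 (limma, adjusted p = 0.0367). Atp5b and Atp5c1 were at -0.23 and -0.10, above the median of all tested genes on that scale, -0.30. That test called 16.7% of genes lower. The coupling factor Atp5s was at -0.01 ± 0.14 on the count scale (adjusted p = 0.977), beside Atp5a1 at the lower end of the complex, and was called lower on log2(TPM + 1) at -0.44 (limma, adjusted p = 0.0362). The other nuclear members of the complex ran from 0.21 for the delta subunit Atp5d to 0.57 for Atp5l, subunit g, whose adjusted p of 0.0503 missed the threshold. Outside the symbol rule, the inhibitor of ATP hydrolysis Atpif1 was at 0.21 ± 0.18 (adjusted p = 0.445), and the small subunit Usmg5 was called higher (0.70 ± 0.19, adjusted p = 0.0368).

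**Figure D3:**
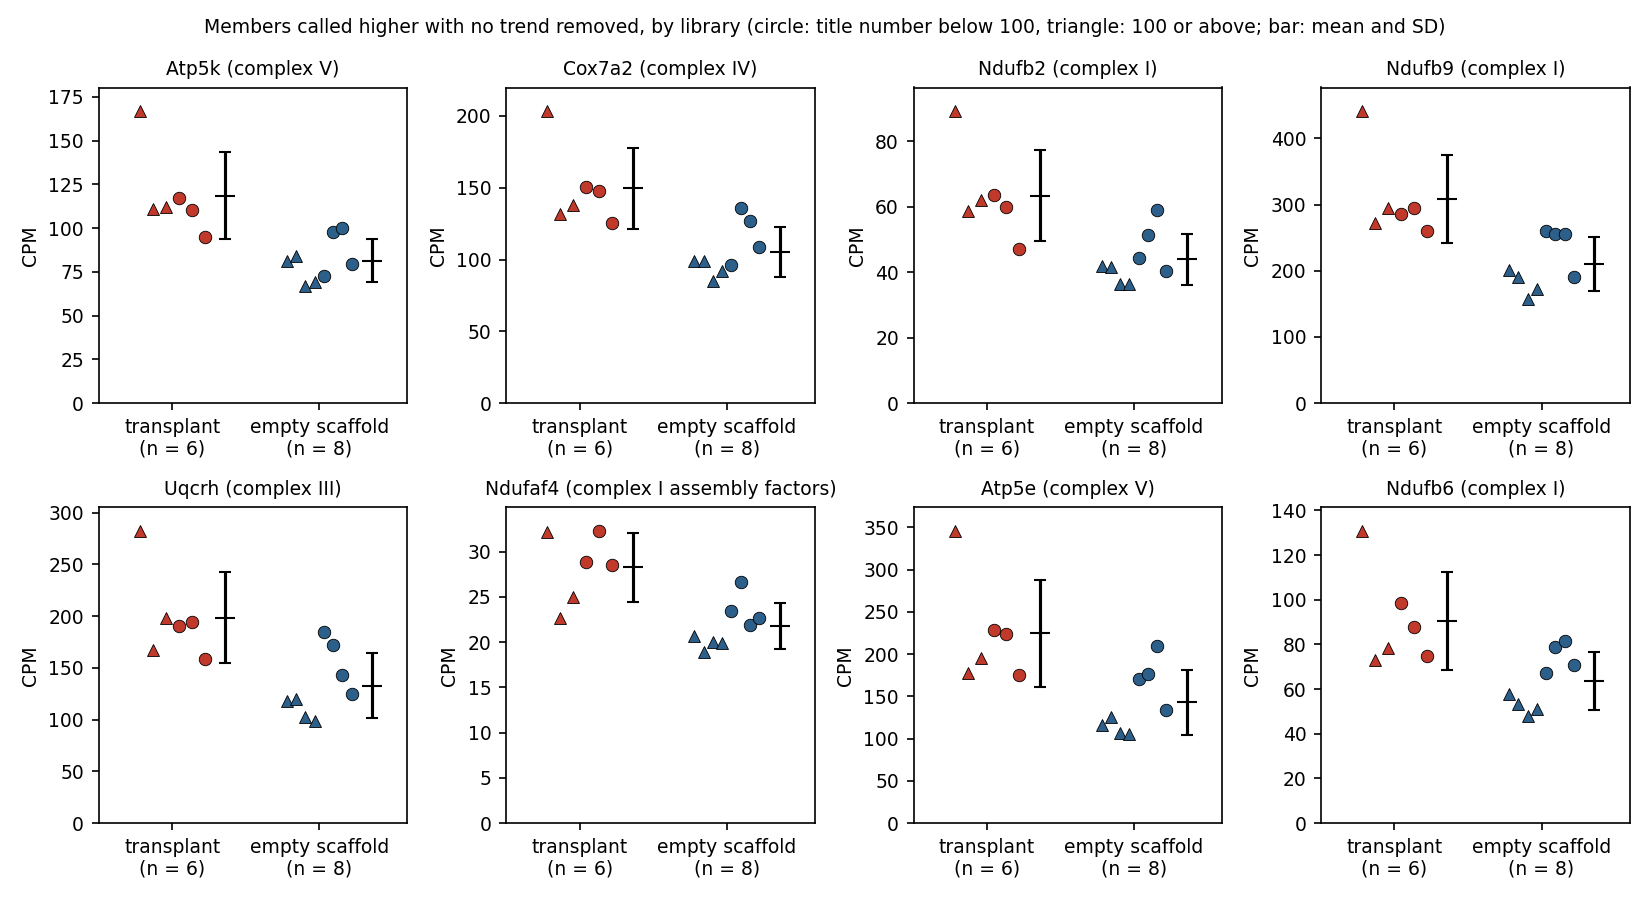
CPM of the 8 called members in each library, with red for the 6 transplant and blue for the 8 empty-scaffold libraries, circles for title numbers below 100, triangles for 100 or above, and bars for mean and SD. In each panel the groups overlap. The 4 blue triangles are the lowest points for Ndufb6, Ndufaf4, Uqcrh and Atp5e (105 to 126 CPM). In the other panels some of them lie above a blue circle, as for Atp5k (84.3 against 72.5 CPM). All 8 log2 fold changes are above 0 on counts, and that of Ndufaf4 is -0.03 on log2(TPM + 1).

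In the test over all 14 libraries none of the 13 mitochondrially encoded members was called, and none had an unadjusted p under 0.05 in edgeR (DESeq2 called none as well, with 1 at an unadjusted p under 0.05). In the libraries numbered 100 or above edgeR called mt-Nd3 higher (0.76, adjusted p = 0.0424), beside 14.5% of genes. It called mt-Nd2 in 1 of the fits that left out 1 library (adjusted p = 0.041). Their log2 fold changes ran from 0.02 ± 0.23 for mt-Nd6 (adjusted p = 0.956) to 0.48 ± 0.27 for mt-Nd3 (adjusted p = 0.236). Within complex I, mt-Nd1 was at 0.25, mt-Nd2 at 0.37, mt-Nd4 at 0.25, mt-Nd4l at 0.18 and mt-Nd5 at 0.13. Cytochrome b, mt-Cytb, was at 0.28, the oxidase subunits mt-Co1, mt-Co2 and mt-Co3 were at 0.31, 0.31 and 0.35, and mt-Atp6 and mt-Atp8 at 0.30 and 0.28. On log2(TPM + 1) only mt-Nd2 and mt-Nd3 of the 13 were above 0. The most abundant by count, mt-Co1, ran from 16093 to 25257 CPM (median 21856) in transplant and from 13931 to 24515 CPM (median 15112) in empty-scaffold livers. The order of libraries for mt-Nd6 was unlike that of the others. Its 4 empty-scaffold libraries numbered 100 or above, the lowest for the nuclear sum, held 51.4 to 65.4 CPM, and the other 4 held 22.8 to 37.1 CPM. In transplant livers mt-Nd6 ran from 25.7 to 54.9 CPM.

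The 8 called members are few, and most of them have short transcripts, as do most of the tested members. Members had a median transcript length of 766 bases against 2704 bases for all tested genes. Across the 89 nuclear members the Spearman correlation of length with log2 fold change was -0.63, and across all 13131 tested genes it was -0.55. These points come from the same 14 libraries, and genes are not independent replicates. With all tested genes cut into 10 length classes of like size, the shortest class (173 to 1118 bases, 1313 genes) had a median log2 fold change of 0.34 with 11.7% called higher. That class held 71 of the 102 tested members, with a median of 0.43 and 7 of the 8 calls. By length, the median was 0.47 for the 22 nuclear members with transcripts under 600 bases, beside 0.45 for all tested genes of that length. It was 0.43 for the 34 of 600 to under 1000 bases (all genes 0.34) and 0.33 for the 19 of 1000 to under 1500 bases (all genes 0.24). It was 0.18 for the 14 of 1500 bases or more (all genes -0.08). The large subunits Ndufs1 (2564 bases), Sdha (2898 bases), Atp5a1 (2463 bases) and Atp5b (1801 bases) belong to this last class. Over the 13 mitochondrial genes, the Spearman correlation of length with log2 fold change was 0.0.

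The trend with length differed between libraries. It was measured in each as the slope of log2 CPM, relative to each gene's mean, on log2 transcript length over all tested genes. The 4 empty-scaffold libraries numbered 100 or above had slopes of 0.191 to 0.239 per doubling of length, so that long transcripts took more of their counts. The other 4 empty-scaffold libraries had slopes of -0.125 to -0.003. Transplant libraries had slopes of -0.163 to -0.095 below 100 and -0.263 to 0.029 at 100 or above, with transplant replicate 1 at -0.263. The libraries with the lowest slopes held the most nuclear respiratory chain counts, and those with the highest slopes the fewest.

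**Figure D4:**
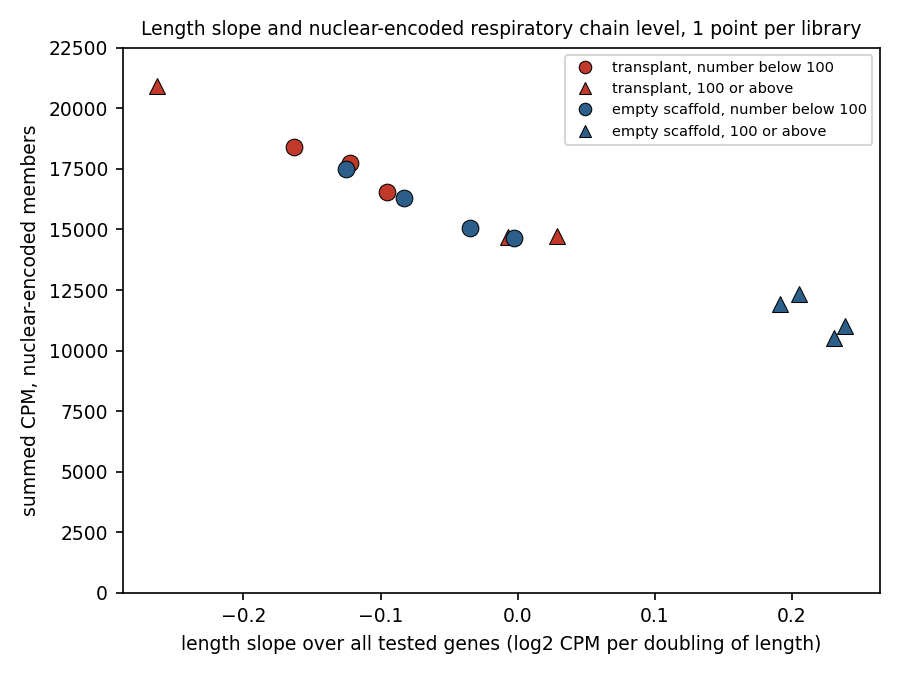
Slope of log2 CPM on log2 transcript length over all 13131 tested genes (x axis, per doubling of length) and summed CPM of the nuclear-encoded members (y axis) in each of the 14 libraries; red is transplant, blue empty scaffold, circles have title numbers below 100, triangles 100 or above. Transplant replicate 1 lies at -0.263 and 20937 CPM, and the 4 empty-scaffold libraries numbered 100 or above lie at 0.191 to 0.239 and 10534 to 12333 CPM.

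With smooth trends on length and GC content removed from each library, no member was called in either direction. The test then called 1.23% of all tested genes higher and 1.84% lower, and the smallest adjusted p of a member was 0.0687 (edgeR), that of Atp5e at 0.29. At an unadjusted p under 0.05, 23 nuclear members (22 higher and 1 lower) and no mitochondrial members passed, beside 21.1% of all tested genes in either direction. The share of all tested genes in each direction at that cut is not given here. The nuclear median was 0.11, with 76 of 89 members above 0 beside 50.8% of all tested genes. The mitochondrial median was -0.19, with none of 13 above 0. Over these 13 genes the Spearman correlation of length with log2 fold change was 0.0 before this step and 0.75 after it. The part of the step itself in their values below 0 was not tested. With the length trend alone removed, 1 member was called, Ndufaf4 (adjusted p = 0.0367), beside 1.87% of genes called higher, and the medians were 0.11 and 0.02. Ndufb4 was the highest member at 0.41 (adjusted p = 0.073) and mt-Nd6 the lowest at -0.46 (adjusted p = 0.478) in that fit. With both trends removed they were at 0.42 (adjusted p = 0.0746) and -0.73 (adjusted p = 0.268).

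**Figure D5:**
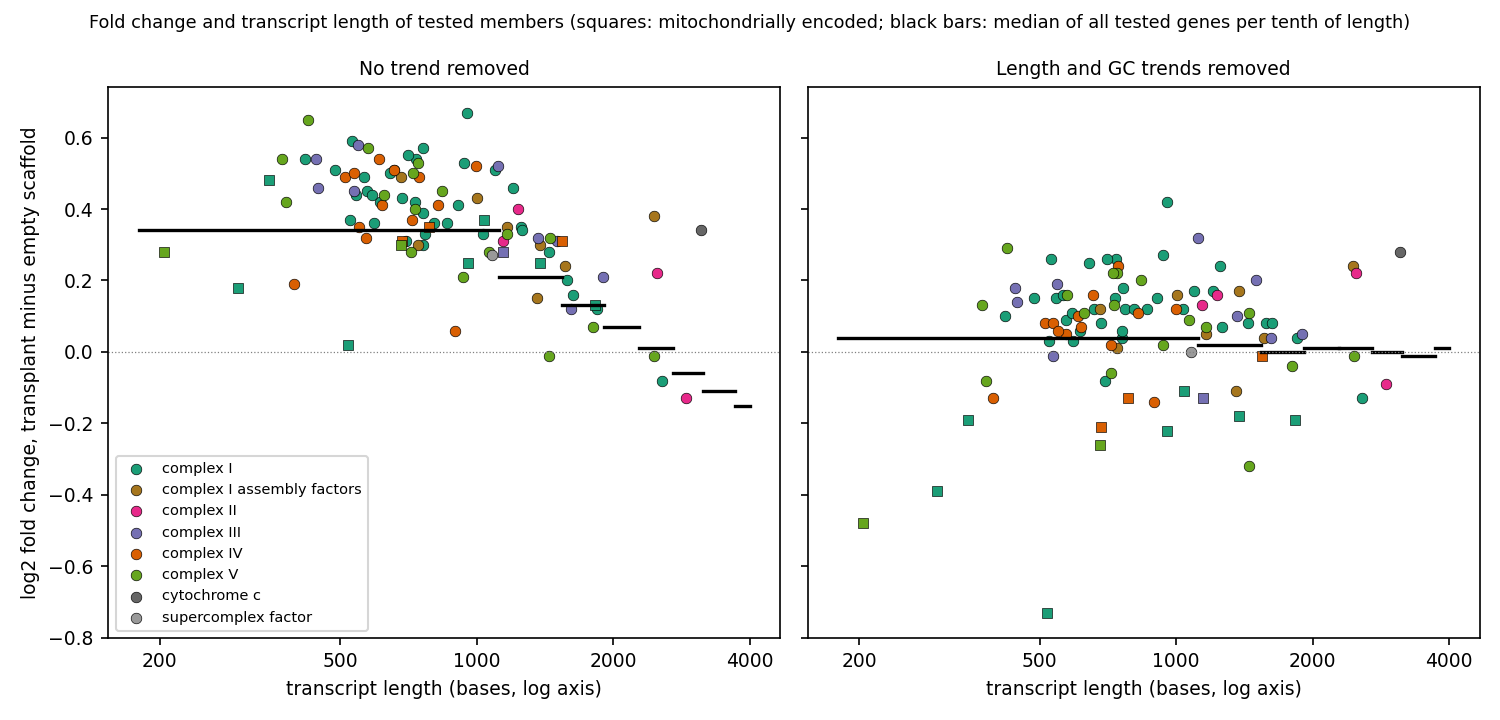
Log2 fold change (transplant over empty scaffold) against transcript length (log axis) for the 102 tested members, with no trend removed (left) and with length and GC trends removed (right); circles are nuclear-encoded, squares mitochondrially encoded, colours give the complex, and black bars the median of all tested genes in length classes of like size (10 in all, the longest beyond the axis). On the left the nuclear members decline with length as the black bars do. The median of members lies above the bar in each class that holds members, as in the shortest (0.43 against 0.34). For the squares the Spearman correlation with length is 0.0. On the right the nuclear median is 0.11 and all 13 squares lie below 0, with a Spearman correlation of 0.75. With the length trend alone removed, not drawn, the mitochondrial median is 0.02. On log2(TPM + 1), also not drawn, the nuclear median is -0.03.

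The median difference of the nuclear members was smaller in the libraries numbered below 100. There, 3 transplant and 4 empty-scaffold libraries gave a nuclear median of 0.17 and a mitochondrial median of 0.26, and no member was called (edgeR; 2 were higher at an unadjusted p under 0.05), beside 0.0154% of genes called higher. In the libraries numbered 100 or above the medians were 0.68 and 0.32, and 79 members were called higher beside 14.5% of genes. Without transplant replicate 1, that range gave medians of 0.43 and 0.08 and 66 members called, beside 11% of genes. Its mitochondrial median thus lay above that of the libraries numbered below 100 with this library and below it without. For Atp5e the change was 0.28 below 100 and 1.09 at 100 or above, and for Atp5k 0.30 and 0.79. Ndufaf4 differed little, at 0.34 and 0.42. The test of the difference itself, the interaction of group and number range in edgeR, called no gene of 13131 (0.0%, with 2275 at an unadjusted p under 0.05). The lowest adjusted p of a member was 0.176, and 50 members had an unadjusted p under 0.05. With the number range as a covariate over all 14 libraries, 66 members were called higher beside 10.5% of genes. With length and GC trends removed as well, 4 were called beside 3.02% of genes: Ndufb4 (0.44, adjusted p = 0.041), Atp5j (0.22, adjusted p = 0.0443), Ndufb2 (0.26, adjusted p = 0.0471) and Atp5e (0.28, adjusted p = 0.0486).

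Promoters of the nuclear members were read for the motifs of factors known to control respiratory genes. RefSeq windows on GRCm38.p6, 250 bases before to 50 after a gene's start, were matched for 77 of the 95 nuclear members, and both strands were searched. The core of the binding motif of nuclear respiratory factor NRF1, GCATGCGC, was present in 13 of 77 members (16.9%), beside 3.05% of all 27025 genes with such a window (2.71% of all 32851 windows, since a gene can have several). The motif AAGATGGCG of YY1 was present in 8 members (10.4%) beside 1.64% of genes (1.4% of windows). In 7 of these 8 it lay only after the gene's start, 10 to 35 bases downstream. The motif CCGGAAGT of GABPA, also called nuclear respiratory factor 2, was present in 5 members (6.5%) beside 4.31% of genes (3.89% of windows). TCAAGGTCA of the estrogen-related receptors was present in 2 members (2.6%) beside 0.466% of genes (0.423% of windows). The TATA box TATAAA was present in 7 members (9.1%) beside 15.7% of genes (13.6% of windows). Of the called members with a matched window, which leaves out Ndufb9, Atp5k and Ndufaf4 held the NRF1 motif and Uqcrh that of GABPA. These 3 windows are shown with those of 2 further members that hold the NRF1 motif, Ndufa11 and Cycs, for comparison. Each runs 5′ to 3′ on the gene's own strand and ends before the start, with the motif in capitals. Where 10 capitals stand in a row, the motif is present on both strands and the copies overlap, and in Uqcrh the capitals are the reverse complement:
Atp5k, chr5:108434400-108434489, minus strand: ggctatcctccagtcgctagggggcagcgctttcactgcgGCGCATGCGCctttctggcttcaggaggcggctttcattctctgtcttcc
Ndufaf4, chr4:24897930-24898019, plus strand: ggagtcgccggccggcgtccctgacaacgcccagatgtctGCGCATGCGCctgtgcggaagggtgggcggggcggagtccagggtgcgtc
Ndufa11, chr17:56717662-56717751, plus strand: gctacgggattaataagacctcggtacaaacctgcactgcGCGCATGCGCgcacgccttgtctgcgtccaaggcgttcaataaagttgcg
Cycs, chr6:50566582-50566669, minus strand: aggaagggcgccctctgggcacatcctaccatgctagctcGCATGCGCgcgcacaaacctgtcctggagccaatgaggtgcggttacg
Uqcrh, chr4:116075071-116075121, minus strand: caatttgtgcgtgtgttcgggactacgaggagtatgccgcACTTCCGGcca
The NRF1 motif began 50 bases before the start in Atp5k, 113 bases before it in Ndufaf4 and 60 bases before it in Ndufa11 and Cycs. Members with the motif covered a range of log2 fold changes, from 0.12 for Uqcrc1 to 0.57 for Atp5l. A match describes letters in the window and does not show binding.

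Genes around the chain were read from lists of its partners. Over all tested genes edgeR called 3.31% higher and 4.23% lower, and 1.23% higher with trends on length and GC content removed. Of 47 tested assembly factors outside the symbol rule, 6 rose and none fell, with a median log2 fold change of 0.29. The leading 3 were the supercomplex-associated protein Higd1a (0.57 ± 0.12, adjusted p = 0.0162), the copper-delivery factor Coa6 (0.66 ± 0.16, adjusted p = 0.029) and the complex IV assembly factor Pet100 (0.68 ± 0.17, adjusted p = 0.0309). Once trends on length and GC content were taken out, Higd1a (0.40, adjusted p = 0.0315) and Pet100 (0.35, adjusted p = 0.0423) were still called, and Coa6 (0.28, adjusted p = 0.0785) was not. Of 13 coenzyme Q genes 2 rose, Coq10b (0.72 ± 0.13, adjusted p = 0.0133), a coenzyme Q-binding protein, and the methyltransferase Coq3 (0.39 ± 0.11, adjusted p = 0.0463). Neither was called with the trends removed (0.47, adjusted p = 0.0918, and 0.33, adjusted p = 0.0746). Of 14 other dehydrogenases that feed electrons to the chain 1 rose, the proline dehydrogenase Prodh (0.38 ± 0.11, adjusted p = 0.0425), which was also called with the trends removed (0.39, adjusted p = 0.0367). Etfb of the same list was called higher only with the trends removed (0.31, adjusted p = 0.0445). Without that step it was at 0.53 ± 0.17 (adjusted p = 0.0557), and it was named after its values were seen.

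Of 32 genes for expression and upkeep of mitochondrial DNA 2 rose: the transcription elongation factor Tefm (0.53 ± 0.10, adjusted p = 0.0144) and Hsd17b10, a part of mitochondrial RNase P (0.71 ± 0.18, adjusted p = 0.0321). With the trends removed Hsd17b10 was called (0.46, adjusted p = 0.0293) and Tefm was not (0.23, adjusted p = 0.0814). Of 21 genes for cristae and the inner membrane 3 rose: the cardiolipin synthase Crls1 (0.46 ± 0.11, adjusted p = 0.0244), the chaperonin Hspe1 (0.57 ± 0.15, adjusted p = 0.0354) and the prohibitin Phb2 (0.36 ± 0.10, adjusted p = 0.0422). Of these, Crls1 was called with the trends removed (0.29, adjusted p = 0.0483), and Hspe1 (0.26, adjusted p = 0.13) and Phb2 (0.22, adjusted p = 0.0782) were not. Of 15 carriers and porins 2 rose, the pyruvate carrier subunit Mpc2 (0.59 ± 0.14, adjusted p = 0.0284) and the carnitine-acylcarnitine carrier Slc25a20 (0.42 ± 0.11, adjusted p = 0.0322). Both were also called with the trends removed (0.32, adjusted p = 0.0353, and 0.30, adjusted p = 0.0423). None of 21 tricarboxylic acid cycle genes was called by edgeR, and their median was 0.07. At an unadjusted p under 0.05, 3 of them were higher and 1 lower, beside 14.6% of all tested genes higher. DESeq2 called 2 of them higher, beside 7.55% of genes. Of 21 regulators of mitochondrial biogenesis, with a median transcript length of 4182 bases, 1 rose, the deacetylase Sirt3 (0.36 ± 0.10, adjusted p = 0.0377), and the median was -0.08. Sirt3 ran from 107 to 148 CPM in transplant and from 78.0 to 105 CPM in empty-scaffold livers, and its groups did not overlap. With the trends removed Sirt3 was at 0.21 (adjusted p = 0.181). In that fit 1 other gene of this list was called higher, Yy1 (0.30, adjusted p = 0.0421). Without that step Yy1 was at 0.04 ± 0.08 (adjusted p = 0.762), and it was named after its values were seen. Of the 184 tested genes on these 8 lists edgeR called 17 higher, beside 3.31% of all tested genes, and none lower, beside 4.23%. With the trends removed 9 were called higher, beside 1.23%. At an unadjusted p under 0.05, 8 of the 184 were lower, and the share of all tested genes at that cut is not given here. DESeq2 called 1 lower, the glycerol-3-phosphate dehydrogenase Gpd2 (-0.41, adjusted p = 0.0449, against 0.0636 in edgeR), which was named after its values were seen.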

How the data were processed

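Liver RNA of 14 libraries was compared, 6 transplant and 8 empty scaffold. The members and lists were chosen with earlier results of these data known. The authors deposited estimated counts, effective lengths and TPM per transcript for each library, per the file headers. The submitters' processing notes name fastp 0.20, kallisto 0.46.1, DESeq2 1.38 and GRCm39. The kit is stranded per the labels' protocols, which state RNA integrity above 7 (RIN). The sources used here state neither the strand setting nor the transcript release. Of 128803 transcripts 93.7% matched GENCODE M21, with 99.4 to 99.5% of counts. GENCODE M21 gave the gene of each transcript, gene names and types, GC content and the transcript sequences for alignment. Transcript lengths were those of the deposited tables. Estimated counts were summed per gene, rounded, filtered by edgeR's filterByExpr and tested with edgeR 4.0.16 (quasi-likelihood, robust, TMM factors, R 4.3.3). TPM was summed per gene, and log2(TPM + 1) was tested with limma 3.58.1. CPM values are counts divided by TMM-scaled totals. Length and GC trends were removed per library with splines of 4 degrees of freedom. Alternatives numbered 31, of which 14 left out 1 library and 4 were added after seeing the data (DESeq2 1.42.0 was among the others). The fitting code was tested on simulated data. Named were all mitochondrial genes, a set of core subunits, every called member, the highest and lowest of each complex, and up to 3 called genes per list. Values of 1 core subunit are not reported here. Members sharing 90% of at least 80% of a transcript with another gene were looked up by sequence alignment.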

Additional observations from a re-analysis of the deposited data

Results flagged for a closer look

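Of 204 sets of CPM values, 1 for each tested member and group, 14 had a library far from the others of its group by Dixon's criterion. Chance alone would flag about 1 in 20 such sets. In all 14 the library was transplant replicate 1, and it was the highest. Atp5e had 345.7 CPM there against 229 in the next transplant library, Ndufb9 441.5 against 295, Uqcrh 282.3 against 198.4, Cox7a2 203.5 against 150.7 and Atp5k 167 against 117.1. These 5 are among the called members. The other 9 were not called. Of complex I, Ndufa7 had 207.4 CPM against 135.1, Ndufb5 120.4 against 95, Ndufb8 276.9 against 187 and Ndufb11 188.1 against 147.3. Of its assembly factors, Ndufaf2 had 22.5 CPM against 17.6, Ndufaf6 19.8 against 14.6 and Ndufaf8 21.6 against 15.9. Sdhd of complex II had 335 CPM against 249.9, and Atp5f1 of complex V had 453.8 against 359.1. Of 16 sets of summed levels tested in the same way, none had such a library. Transplant replicate 1 also had the largest library total, the lowest length slope and a mean fragment length outside that of its number range.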

How the results depend on the processing

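No paired analysis was possible because the numbers in the titles are not shared between the groups and replicates were numbered in accession order. Fragment length and the length trend differed between number ranges and between libraries of 1 group, and their part in the counts of called members was not tested separately. Counts of called members moved most, and the cause was not tested. With DESeq2, 1956 genes were called in all, 35 members rose, with 13 in complex I, 4 in assembly factors and complex III, 1 in complex II, 5 in complex IV, 7 in complex V. The log2 fold change changed sign for Atp5a1 (0.01). With effective lengths as offset, 2 members rose, with 1 in complex I and complex V, 0 among assembly factors and in complexes III and IV. The log2 fold change changed sign for mt-Nd6 (-0.09). With fragment length as covariate, 3101 genes were called in all, 75 members rose, with 33 in complex I, 6 in assembly factors, 3 in complex II, 8 in complex III, 11 in complex IV, 12 in complex V. With length and GC trends removed, 402 genes were called in all, 0 members rose, with 0 in complexes I, III, IV and V and among assembly factors, and the median was 0.11 for nuclear-encoded members, -0.19 for mitochondrially encoded members, 0.08 for assembly factors. The log2 fold change changed sign for Atp5b (-0.04), Atpif1 (-0.15), Cox7a1 (-0.13), Ndufa4l2 (-0.14), Ndufaf1 (-0.11), mt-Atp6 (-0.26), mt-Atp8 (-0.48), mt-Co1 (-0.01), mt-Co2 (-0.21), mt-Co3 (-0.13), mt-Cytb (-0.13), mt-Nd1 (-0.22), mt-Nd2 (-0.11), mt-Nd3 (-0.19), mt-Nd4 (-0.18), mt-Nd4l (-0.39), mt-Nd5 (-0.19), mt-Nd6 (-0.73). With both trends removed and number range as covariate, 4 members rose, with 0 among assembly factors and in complexes III and IV, and the median was -0.23 for mitochondrially encoded members, 0.08 for assembly factors, 0.12 for complex III. The log2 fold change changed sign for Atp5b (-0.04), Atpif1 (-0.14), Cox7a1 (-0.11), Cox7a2l (-0.01), Ndufa4l2 (-0.14), Ndufaf1 (-0.12), mt-Atp6 (-0.29), mt-Atp8 (-0.48), mt-Co1 (-0.03), mt-Co2 (-0.23), mt-Co3 (-0.15), mt-Cytb (-0.16), mt-Nd1 (-0.26), mt-Nd2 (-0.14), mt-Nd3 (-0.24), mt-Nd4 (-0.21), mt-Nd4l (-0.37), mt-Nd5 (-0.22), mt-Nd6 (-0.54). With both trends removed and without transplant replicate 1, 2 genes were called in all, 0 members rose, with 0 in complexes I, III, IV and V and among assembly factors, and the median was 0.10 for nuclear-encoded members, -0.13 for mitochondrially encoded members, 0.08 for assembly factors, 0.10 for complex III, 0.05 for complex IV, 0.08 for complex V. The log2 fold change changed sign for Atp5a1 (0.02), Atp5b (-0.05), Atpif1 (-0.18), Cox7a1 (-0.10), Cox7a2l (-0.03), Ndufa4l2 (-0.06), Ndufaf1 (-0.04), mt-Atp6 (-0.20), mt-Atp8 (-0.33), mt-Co2 (-0.17), mt-Co3 (-0.08), mt-Cytb (-0.09), mt-Nd1 (-0.16), mt-Nd2 (-0.04), mt-Nd3 (-0.13), mt-Nd4 (-0.12), mt-Nd4l (-0.25), mt-Nd5 (-0.10), mt-Nd6 (-0.63). With the length trend removed, 568 genes were called in all, 1 member rose, with 0 in complexes I, III, IV and V, and the median was 0.11 for nuclear-encoded members, 0.08 for complex I, 0.11 for assembly factors, 0.07 for complex V. The log2 fold change changed sign for Atp5b (-0.05), Atpif1 (-0.18), Cox6a1 (-0.03), Cox7a1 (-0.19), Cox8a (-0.02), Ndufa4l2 (-0.21), Ndufaf1 (-0.04), Uqcrc1 (-0.02), mt-Atp6 (-0.03), mt-Atp8 (-0.22), mt-Co2 (-0.03), mt-Nd1 (-0.02), mt-Nd4l (-0.29), mt-Nd6 (-0.46). With limma on log2(TPM + 1), 2217 genes were called in all and 0 members rose. The 3 members that fell were Sdha of complex II and Atp5a1 and Atp5s of complex V. The median was -0.03 for nuclear-encoded members, -0.09 for mitochondrially encoded members, -0.02 for complex I, -0.08 for assembly factors, -0.15 for complex II, -0.06 for complex III, -0.03 for complex IV, -0.06 for complex V. The log2 fold change changed sign for Atp5b (-0.23), Atp5c1 (-0.10), Atpif1 (-0.21), Cox5a (-0.06), Cox6a1 (-0.08), Cox7a1 (-0.13), Cox7a2l (-0.20), Cox8a (-0.05), Cyc1 (-0.13), Cycs (-0.07), Ndufa4l2 (-0.17), Ndufab1 (-0.04), Ndufaf1 (-0.30), Ndufaf4 (-0.03), Ndufv1 (-0.27), Sdhb (-0.12), Sdhc (-0.19), Sdhd (-0.08), Uqcrc1 (-0.38), Uqcrc2 (-0.23), Uqcrfs1 (-0.13), mt-Atp6 (-0.06), mt-Atp8 (-0.07), mt-Co1 (-0.09), mt-Co2 (-0.07), mt-Co3 (-0.02), mt-Cytb (-0.12), mt-Nd1 (-0.13), mt-Nd4 (-0.11), mt-Nd4l (-0.16), mt-Nd5 (-0.24), mt-Nd6 (-0.45). On the scale log2(TPM + 1) the median of all tested genes was itself -0.30, with 16.7% of genes called lower and 0.228% higher. With no filter on low counts, 0 assembly factors rose. With number range as covariate, 2576 genes were called in all, 66 members rose, with 29 in complex I, 5 in assembly factors, 2 in complex II, 8 in complex III, 10 in complex IV, 12 in complex V. In libraries numbered 100 or above, 3487 genes were called in all, 79 members rose, with 34 in complex I, 7 in assembly factors, 3 in complex II, 8 in complex III, 12 in complex IV, 13 in complex V, and the median was 0.52 for assembly factors, 0.48 for complex II, 0.73 for complex IV. The log2 fold change changed sign for mt-Nd4l (-0.04), mt-Nd5 (-0.10), mt-Nd6 (-0.20). In that range without transplant replicate 1, 2644 genes were called in all, 66 members rose, with 29 in complex I, 3 in assembly factors, 2 in complex II, 8 in complex III, 11 in complex IV and complex V. The log2 fold change changed sign for mt-Nd5 (-0.09), mt-Nd6 (-0.11). In libraries numbered below 100, 3 genes were called in all, 0 members rose, with 0 in complexes I, III, IV and V and among assembly factors, and the median was 0.12 for assembly factors. The log2 fold change changed sign for Atp5a1 (0.04), Atp5b (-0.01), Atpif1 (-0.09), Cox7a1 (-0.26), Ndufa4l2 (-0.11), Ndufs1 (0.02), Sdha (0.02). Leaving out 1 library at a time gave 138 to 1910 genes called in all and 0 to 48 members higher: 0 to 23 in complex I, 0 to 4 among its assembly factors, 0 to 1 in complex II, 0 to 5 in complex III, 0 to 7 in complex IV and 0 to 9 in complex V. Most members, 48, were called without empty scaffold replicate 7, then 26 without replicate 6 and 17 without replicate 5 of that group, where 7.44%, 4.86% and 5.71% of all genes were called higher, against 3.31% with all libraries. Fewer were called without empty scaffold replicates 1, 2 and 8 (3, 2 and 1, beside 0.925% to 1.66% of genes), and without transplant replicates 3, 4 and 6 (2, 5 and 6, beside 1.31%, 2.33% and 2.79%), while 9 were called without transplant replicate 2, beside 2.59%. Over these fits the log2 fold change of Atp5a1 ran from -0.06 to 0.03, that of mt-Nd6 from -0.08 to 0.14 and that of Ndufa4l2 from -0.04 to 0.17. Without the mitochondrially encoded genes in the library, with relative log expression factors, and with counts of near-identical transcripts added, 8 members rose each time, and limma-voom called 7. Cox4i2 and Cox8b, genes of few counts, were tested only where no filter on low counts was applied beforehand.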
